A study of Arabidopsis thaliana with 6 samples.

Results

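The 150 probe sets described here carry consecutive array numbers, from 244901 to 245050, in the stretch of the Affymetrix array that holds the genes of the plastid and mitochondrial genomes. The rule that chose them uses that number alone, but it was set with earlier results of these data known. They make up 150 of the 22810 probe sets of the table, of which 64 were array controls and 22746 were tested. The rosettes came from Arabidopsis thaliana mutant pmr5 and from the wild type Col-0, with 3 arrays each. PMR5 is known as a gene whose loss gives resistance to powdery mildew and alters the pectin of the cell wall; the labels give neither the allele nor the number of backcrosses. Both genotypes were 3 weeks old, had received no treatment, and had been grown at 22 °C with a 14 h photoperiod. RNA was prepared with Trizol, and 15 µg of total RNA went into the biotin-labelled cRNA of each array. The labels call the arrays of a genotype biological replicates but do not say whether they came from separate sowings or pots, so p-values measure the spread between these arrays only, and no scan date or batch is named in the sources used here.

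Plastids and mitochondria keep small genomes of their own. The plastid genome encodes core subunits of photosystem I, photosystem II, the cytochrome b6f complex, the ATP synthase, the NADH dehydrogenase-like (NDH) complex and Rubisco, with part of the machinery that transcribes and translates them. The other subunits of these complexes come from nuclear genes, so that each complex is built from the products of both genomes. The mitochondrial genome encodes subunits of the respiratory chain and proteins of cytochrome c maturation. Organelle transcripts do not carry the long stable poly(A) tail of nuclear mRNAs, and the sources used here do not say with which primer the cRNA labelling started.

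The gene table paired 96 of the 150 probe sets with 1 gene. A further 8 were paired with 2 copies of the same gene, since those genes lie wholly or in part in the inverted repeat of the plastid genome (rps12 with 2 probe sets, and rpl2, rpl23, rps7, ndhB, ycf1 and ycf2). The probe set 244944_s_at was paired with both rps3 and rpl16 of the mitochondrial genome and is given by its ID. The remaining 45 had no gene in the table and are also given by ID. Of the named probe sets, 77 belonged to the plastid and 13 to the mitochondrion. The plastid probe sets covered 76 of the 78 protein-coding plastid gene symbols in the RefSeq annotation, and 0 probe sets outside the stretch were paired with an organelle gene.

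Not all members bore out the label of organelle genes. The table placed 15 named probe sets on nuclear chromosome 2. For 5 of them the locus codes begin with AT2G07, a region of chromosome 2 that is known to carry an inserted copy of the mitochondrial genome, and 4 of these 5 have the suffix s_at, which Affymetrix gives to probe sets that match more than 1 transcript. The other 10 have locus codes beginning with AT2G26, and among them are YAB5, a YABBY transcription factor of the abaxial side of leaves, and AT2G26500, for a small subunit of the cytochrome b6f complex encoded in the nucleus. All 10 lay in the run of 20 consecutive numbers between the nearest plastid genes on either side, which were taken as its limits. The other 10 probe sets of that run had no gene. The numbers just inside the end of the stretch were rps16 with a mean log2 signal of 8.01 and psbK with 11.7, and the unnamed probe sets just outside it, 245051_at and 245052_at, had 7.10 and 6.60. The lowest number in the table was 244901, so nothing lay on the other side.

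The plastid probe sets were bright. Averaged over the 6 arrays, their log2 signals lay between 6.03 and 15.5 with a median of 12.5, and 63 of the 77 had a mean above 10. The median of the same mean over all 22746 tested probe sets was 4.76. Signals of different probe sets depend on their oligonucleotides as well as on the transcript, so these ranges describe the probe sets and give no order of transcript amounts. The 13 mitochondrial probe sets lay lower on this scale, between 2.22 and 9.78 with a median of 4.80, and 0 of them had a mean above 10. The 5 probe sets of the AT2G07 loci lay between 2.19 and 9.18. The 10 of the AT2G26 loci ranged from 2.19 to 14.4, where AT2G26500 was the highest and AR781 followed at 8.19. Of the 45 unnamed probe sets, 29 had a mean below 4, while 244979_at and 244981_at, whose numbers lie between those of plastid genes, averaged 13.9 and 12.4.

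**Figure D1:**
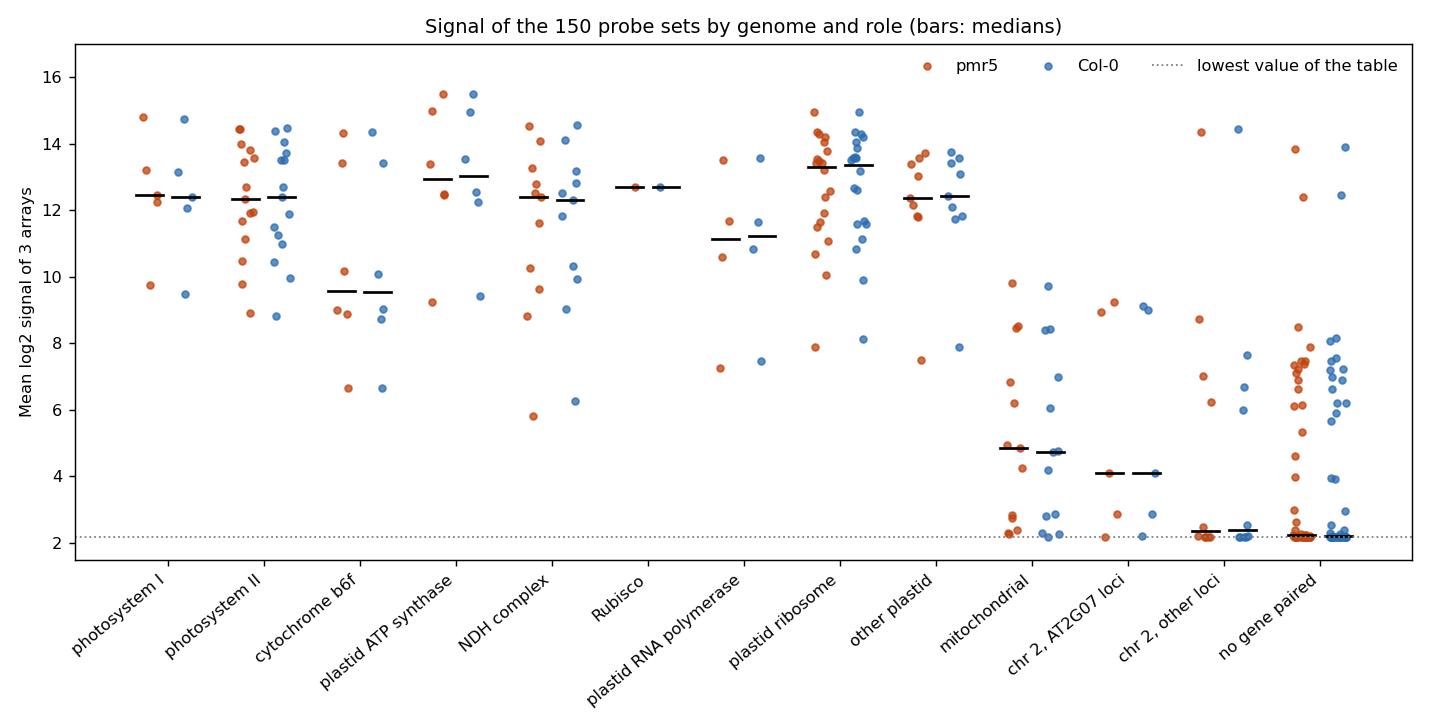
Mean log2 signal of the 150 probe sets in pmr5 (orange, left) and Col-0 (blue, right), each point 1 probe set averaged over 3 arrays, by genome and role, with black bars for medians and a dotted line at the lowest value of the table. The plastid groups lie mostly above 10 in both genotypes, and the probe sets on the dotted line are in the mitochondrial, chromosome 2 and unpaired groups.

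Within the plastid genome the roles overlapped in signal. The 20 probe sets of ribosomal proteins had a median of 13.3, the 6 of ATP synthase subunits 13.0, and those of photosystem I (5), photosystem II (15) and the NDH complex (11) 12.4 each. The 4 RNA polymerase subunits had a median of 11.2 and the 6 cytochrome b6f subunits 9.56. The 8 members with the highest means were 7 plastid genes and AT2G26500. The atpE probe set, for the epsilon subunit of the ATP synthase, read 15.50, 15.51 and 15.50 on the pmr5 arrays and 15.58, 15.48 and 15.47 on the Col-0 arrays. The atpB probe set, for its catalytic beta subunit, read 15.01, 15.00 and 14.98 in pmr5 and 15.03, 14.98 and 14.90 in Col-0. In both genes the genotypes overlapped, and the whole range over 6 arrays was little more than 0.1 log2 units. The others, rps7 of the small ribosomal subunit, psaB of the photosystem I reaction centre, ndhI of the NDH complex, and psbC and psbM of photosystem II, averaged between 14.4 and 15.0 over the 6 arrays, with SDs between 0.03 and 0.10.

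The deposited table has a shared lowest value of 2.19, at which values have no order. Of the 150 members, 17 stood at it on all 6 arrays, which is 11.3%, against 16.5% of all tested probe sets. Another 11 stood at it on some arrays and 122, or 81.3%, on none, against 71.2% of all tested probe sets. Of the 17, 15 had no gene in the table and 2 were AT2G26 loci. No plastid probe set reached the lowest value on any array. Among the named mitochondrial genes only matR, for an intron maturase, did so, at 2.19, 2.41 and 2.19 in pmr5 and 2.19 on the 3 Col-0 arrays. By array, between 22 and 26 members were at the lowest value in pmr5 and between 24 and 27 in Col-0, or 14.7% to 18.0% of the members, where the share over the whole table was 25.0% to 26.3%.

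Identical values were frequent also above this floor. Of the 122 members above it on every array, 27 had the same value on at least 2 arrays, 14 on at least 3 and 8 on at least 4. On all 6 arrays 244942_at had 1 value, so that 121 members varied above the floor. The sources used here do not name the step that made these ties, and a tied member can show only part of its spread. The cytochrome c maturation gene ccb206, for example, read 2.43, 2.30 and 2.43 in pmr5 and 2.30 on each Col-0 array. Of these, pmr5 replicate 2 and Col-0 replicates 1 and 3 had exactly the same value, and all 6 values were within 0.3 of the floor.

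Set against Col-0, the pmr5 arrays addressed whether the mutation goes with altered organelle transcripts in untreated rosettes. In the limma fit over all 22746 probe sets, 0 of the 150 members passed an adjusted p under 0.05, where the share called over the whole table was also 0%. At an unadjusted p under 0.05 there were 3 members, where the share was 2.6% of all tested probe sets and 3.7% of those that varied above the lowest value. The 1 member higher in pmr5 stands beside 1.37% of all tested and 1.95% of the varying probe sets, and the 2 lower beside 1.23% and 1.75%. With a statistic that shares no variance between probe sets, 0 members passed after adjustment and 1 before it. The genotypes did not overlap in 5 members, which is 3.33% of the 150 and 4.13% of the 121 that varied above the floor, against 4.66% of all tested probe sets and 6.55% of the varying ones. Of the 5, 2 were higher in pmr5, where the share was 2.41% of all tested and 3.41% of the varying probe sets, and 3 were lower, where it was 2.25% and 3.14%. The members' shares in either direction were near the background. RNA of whole rosettes does not tell fewer cells of a type from less RNA per cell.

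The differences themselves were small. Among the 121 varying members, 59 were higher and 62 lower in pmr5, and the median absolute difference was 0.07 log2 units, against 0.13 over all varying probe sets. For the 77 plastid genes the median absolute difference was 0.06, the median standard error 0.13 and the mean difference -0.02, with 33 genes higher and 44 lower. The mean difference over all tested probe sets was 0.01. Because the spread may depend on brightness, the 63 plastid probe sets with a mean above 10 were set beside the 1336 others above that level, a limit chosen after the values were seen. Their median absolute differences were 0.05 and 0.10, and their median SDs within a genotype 0.15 and 0.18. No test of these contrasts was made.

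**Figure D2:**
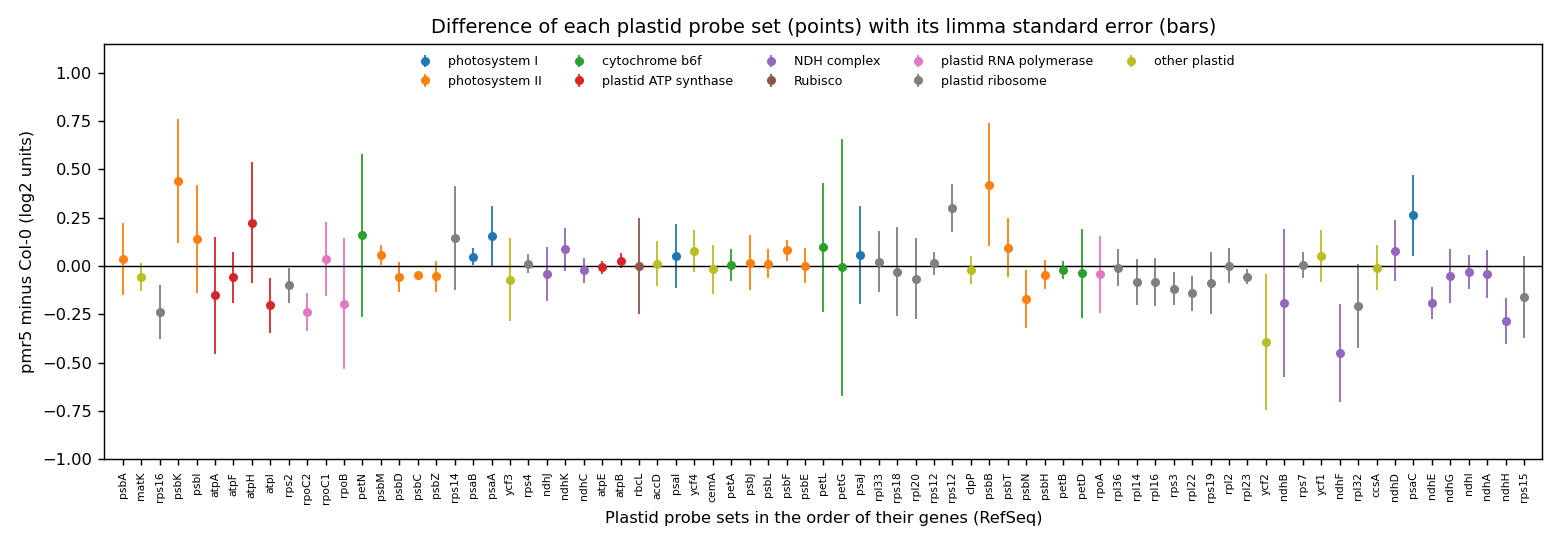
Difference in log2 signal, pmr5 minus Col-0, for the 77 plastid probe sets in the order of their genes along the plastid genome, coloured by role, with bars for limma's standard error (n = 3 arrays each). Most points lie within 1 standard error of 0, and the widest differences are ndhF at -0.45 and psbK at 0.44.

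Of the plastid genes, only psbC and ndhH had genotypes that did not overlap, both lower in pmr5. The psbC probe set, for the CP43 antenna protein of photosystem II, read 14.42, 14.43 and 14.44 in pmr5 and 14.50, 14.49 and 14.45 in Col-0. The pmr5 arrays all lay below the Col-0 arrays, by as little as 0.01 for the nearest pair. The difference was -0.05 (SE 0.02, limma unadjusted p = 0.0348, adjusted p of 1). The ndhH probe set, for a subunit of the NDH complex that takes part in cyclic electron flow, read 9.71, 9.81 and 9.41 in pmr5 and 9.97, 9.95 and 9.87 in Col-0. Here pmr5 replicate 3 was the lowest array and pmr5 replicate 2 came within 0.1 of the lowest Col-0 array. The difference was -0.29 (SE 0.12, limma unadjusted p = 0.0677, adjusted p of 1), and -0.17 without pmr5 replicate 3.

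The other 3 members without overlap had no gene in the table. The probe set 244921_s_at read 8.49, 8.66 and 8.36 in pmr5 and 8.17 on all 3 Col-0 arrays. Its number lies among those of the AT2G07 loci and mitochondrial genes, and its Col-0 values were tied, which makes its spread in Col-0 0. The difference was 0.34 (SE 0.08, limma unadjusted p = 0.0122, adjusted p of 1). The other two lie in the run of numbers that holds the AT2G26 loci. The lower one, 245042_at, read 7.37, 7.23 and 7.42 in pmr5 and 7.54, 7.66 and 7.51 in Col-0, a difference of -0.23 (SE 0.07, limma unadjusted p = 0.0259). The higher one, 245035_at, read 4.16, 5.30 and 4.39 in pmr5 and 3.67, 4.08 and 4.08 in Col-0. Its difference of 0.67 (SE 0.36) rested largely on pmr5 replicate 2 and was 0.33 without that array.

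The widest differences among all members had overlapping genotypes and lay outside the named organelle genes. The unnamed 245038_at, whose number lies in the run that holds the AT2G26 loci, read 7.65, 6.52 and 7.98 in pmr5. In Col-0 it read 5.73, 6.06 and 6.84. AR781, at an AT2G26 locus, read 8.66, 7.90 and 9.61 in pmr5 and 7.77, 7.27 and 7.93 in Col-0. In both, pmr5 replicate 2 lay among the Col-0 arrays. Their differences were 1.17 (SE 0.53) and 1.07 (SE 0.51), or 2.26-fold and 2.10-fold, and they were 1.61 and 1.48 without pmr5 replicate 2, but 0.88 and 0.63 without pmr5 replicate 3. AT2G26500 was at 14.36, 14.34 and 14.34 in pmr5 and 14.50, 14.35 and 14.48 in Col-0, a difference of -0.10 (SE 0.04) with overlap.

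**Figure D3:**
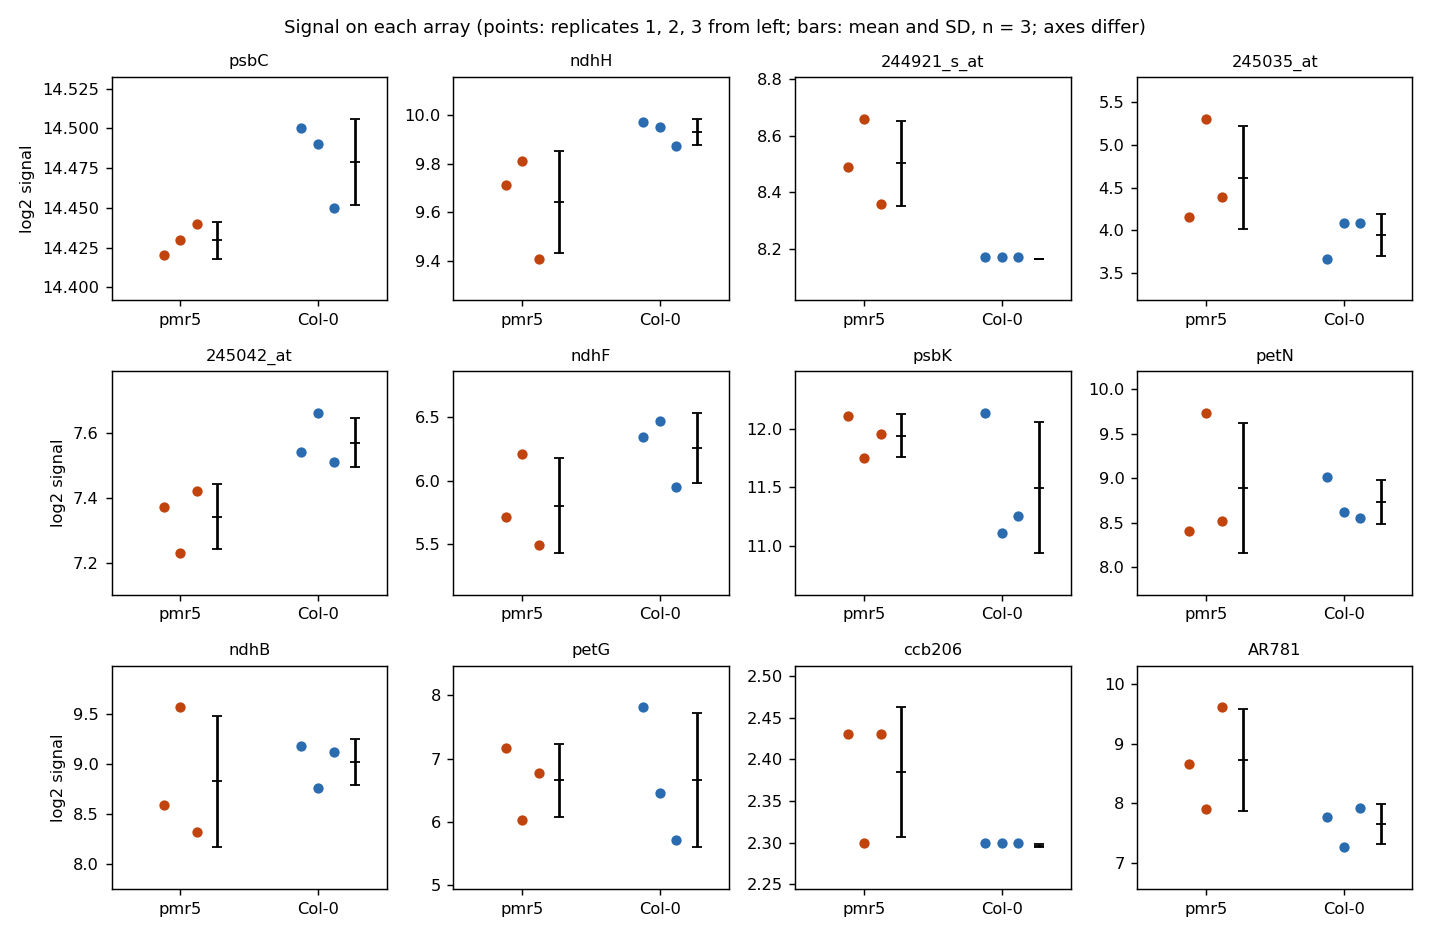
Log2 signal of 12 members on each array, with pmr5 (orange) left of Col-0 (blue), points for replicates 1 to 3 and bars for the mean and SD (n = 3). The genotypes are apart for psbC, ndhH, 244921_s_at, 245035_at and 245042_at and overlap for the other 7, and pmr5 replicate 2 stands above the other pmr5 arrays for petN and ndhB and below them for petG.

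By role, no gene of a plastid complex passed the adjusted test. All 5 photosystem I genes had a positive difference, or 4 of the 5 with quantile normalization and 3 without Col-0 replicate 3. It ran from 0.05 for psaB to 0.26 for psaC, whose product holds the terminal iron-sulfur clusters. The psaC probe set read 9.46, 9.93 and 9.83 in pmr5 and 9.80, 9.24 and 9.40 in Col-0, with overlap and an SE of 0.21. Its difference was 0.14 without Col-0 replicate 2 and 0.42 without Col-0 replicate 1. In photosystem II 10 genes had a positive and 5 a negative difference, which became 6 and 9 with arrays centred on their medians and 7 and 8 without Col-0 replicate 2 or Col-0 replicate 3. There psbK, a small subunit, read 12.11, 11.75 and 11.95 in pmr5 and 12.13, 11.11 and 11.26 in Col-0. The difference of 0.44 (SE 0.32) came from 2 low Col-0 arrays, while Col-0 replicate 1 was as high as the highest pmr5 array. It was 0.24 without Col-0 replicate 2 and 0.76 without Col-0 replicate 1. The core antenna gene psbB had a similar difference of 0.42 (SE 0.32), with overlap as well.

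The NDH complex had 2 genes higher and 9 lower in pmr5, with a median difference of -0.04. This direction was the same under both scalings but turned to 7 higher and 4 lower without Col-0 replicate 1, and to 5 and 6 without pmr5 replicate 3. The ndhF probe set read 5.71, 6.21 and 5.49 in pmr5 and 6.34, 6.47 and 5.95 in Col-0. Only pmr5 replicate 2 lay inside the Col-0 range, and the difference was -0.45 (SE 0.25), or -0.29 without pmr5 replicate 3. The ATP synthase had 2 genes higher and 4 lower, 3 and 3 with quantile normalization, and 5 and 1 without Col-0 replicate 1. Its differences lay between -0.20 for atpI and 0.22 for atpH. The cytochrome b6f genes were split evenly, 3 higher to 3 lower, or 2 to 4 with arrays centred on their medians. Their split was 5 to 1 without Col-0 replicate 1 or Col-0 replicate 3, and 1 to 5 without Col-0 replicate 2 or pmr5 replicate 2. Of the single Rubisco gene in the plastid, rbcL for the large subunit, the difference was below 0.01 in size with an SE of 0.25, and its sign turned with quantile normalization.

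Genes of the plastid's own expression machinery had differences on both sides. Of the 20 ribosomal protein probe sets 7 were higher and 13 lower in pmr5, which became 4 and 16 with quantile normalization, 2 and 18 with arrays centred on their medians, and 10 and 10 without pmr5 replicate 1. Their median difference was -0.06. The 2 probe sets of rps12, a ribosomal protein gene whose transcript is spliced together from separate pieces, had different values of the contrast, a gap that was not tested, and both followed the mean of the plastid genes from array to array. One, 244939_at, read 11.78, 12.01 and 11.92 in pmr5 and 11.81, 11.56 and 11.43 in Col-0, a difference of 0.30 (SE 0.12, limma unadjusted p = 0.0668, adjusted p of 1). The other, 244940_at, differed by 0.01 (SE 0.06). Of the 4 subunits of the plastid-encoded RNA polymerase 1 was higher and 3 were lower, 0 and 4 with arrays centred on their medians, and 2 and 2 without Col-0 replicate 1 or pmr5 replicate 3. Its rpoC2 probe set read 10.73, 10.45 and 10.58 in pmr5 and 10.72, 10.94 and 10.81 in Col-0. The genotypes overlapped at their nearest arrays, and the difference was -0.24 (SE 0.10, limma unadjusted p = 0.0668). The other 9 plastid genes, among them clpP for a protease subunit, accD for a subunit of acetyl-CoA carboxylase and matK for an intron maturase, had 3 higher and 6 lower, or 6 and 3 with quantile normalization and without Col-0 replicate 1 or pmr5 replicate 1. Their differences lay between -0.39 for ycf2 and 0.08 for ycf4. That of ycf2 was -0.13 without pmr5 replicate 3 and -0.74 without pmr5 replicate 2.

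Of the 13 mitochondrial probe sets, 12 varied above the floor, 9 of them higher and 3 lower in pmr5, and in none did the genotypes separate. The differences ran from -0.16 for ccb452 to 0.17 for nad4L, with a median of 0.08 over the 13 and a median SE of 0.17 over the 12. The nad4L probe set, for a subunit of respiratory complex I, read 4.67, 4.91 and 5.21 in pmr5 and 4.85, 4.77 and 4.67 in Col-0. Its difference of 0.17 (SE 0.16) rested on pmr5 replicate 3 and was 0.03 without it. The ccb382 probe set, for cytochrome c maturation, read 8.54, 8.27 and 8.73 in pmr5 and 8.13, 8.56 and 8.48 in Col-0, a difference of 0.12 (SE 0.18). Its direction turned, at -0.01, without Col-0 replicate 1. The low ccb206 probe set differed by 0.09 (SE 0.04, limma adjusted p of 1). Without pmr5 replicate 2 the difference was 0.13, with a limma adjusted p of 0.0337, and it was the only member called in any alternative run. Its adjusted p ranged from 0.0337 to 1 over the alternatives, and all its values are close to the lowest value.

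The members kept their pattern from array to array. Across the 150 members the signals of any 2 arrays correlated with Pearson's r between 0.996 and 0.999, with a median of 0.998 over the 15 pairs of arrays. Within the 77 plastid probe sets r lay between 0.983 and 0.997, and over the whole table between 0.980 and 0.995. The coefficients were 0.996 to 0.999 within pmr5, 0.998 to 0.999 within Col-0 and 0.997 to 0.998 between the genotypes. These are correlations across probe sets, which are not independent replicates and whose differences in brightness set most of the coefficient.

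To see how the members moved together, the mean of each genotype was taken from every value, which leaves the deviations of the 3 arrays within each genotype. The correlations that follow are over 6 arrays with 4 degrees of freedom left, share the normalization of the arrays, and are given as a description. Over the 2926 pairs of plastid probe sets the median r was 0.42. It exceeded 0.7 in 26.8% of the pairs and was below -0.7 in 2.67%. The same r was not computed for bright probe sets outside the stretch, so these values cannot be called particular to plastid genes. The first principal component of the unscaled plastid deviations held 48.7% of their variance and the second 29.7%. On the first, 58 genes had a positive and 19 a negative weight, and pmr5 replicate 2 stood apart with a score of 2.38. The other pmr5 arrays had -1.31 and -1.07 and the Col-0 arrays 0.49, -0.70 and 0.22. The 12 varying mitochondrial probe sets had a median r of 0.02 over 66 pairs. Among them ccb203, ccb206, nad6 and nad7 had low means, between 2.28 and 2.85, and tied values, which limits what their r can show.

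**Figure D4:**
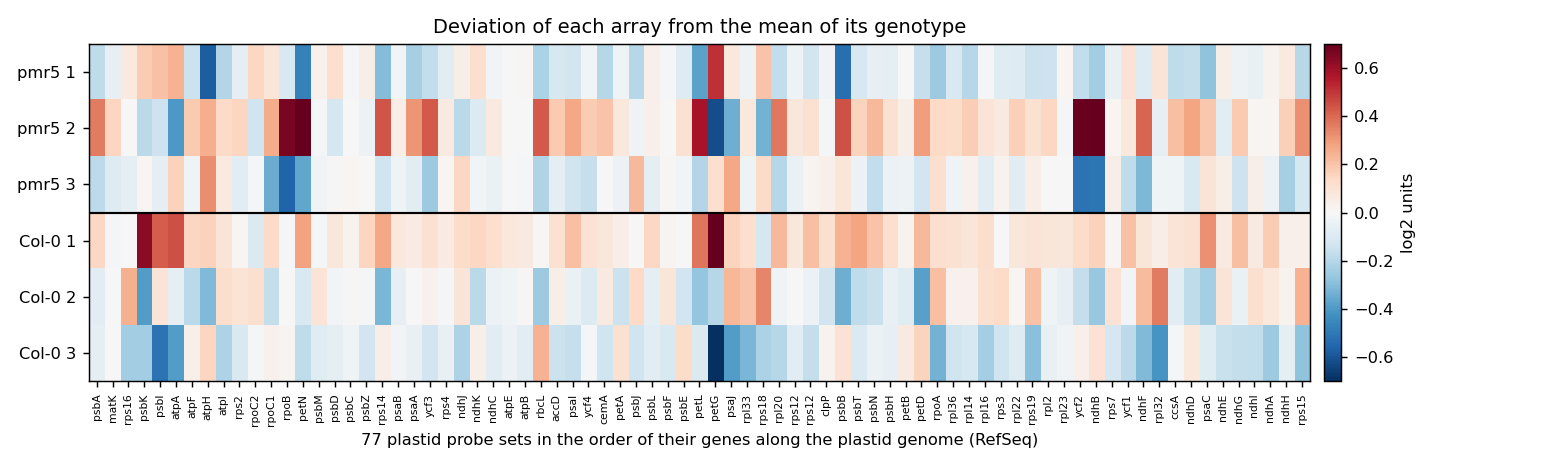
Deviation of the log2 signal from the mean of the genotype on each array (rows, pmr5 above Col-0) for the 77 plastid probe sets in gene order (columns), with red for higher, blue for lower and colours limited to 0.7 log2 units on either side. The row of pmr5 replicate 2 is mostly red with strong columns at rpoB, petN, ycf2 and ndhB, Col-0 replicate 1 is mostly red and Col-0 replicate 3 mostly blue.

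Within each genotype most plastid genes were highest on the same array. Among the pmr5 arrays, replicate 2 was the highest for 50 of the 77 probe sets, or 64.9%, against 41.3% of the 1336 other probe sets with a mean above 10. Among the Col-0 arrays, replicate 1 was the highest for 52, or 67.5%, against 51.4%, and replicate 3 the lowest for 49, or 63.6%, against 46.3%. In 36 genes, or 46.8%, both replicate 2 of pmr5 and replicate 1 of Col-0 were the highest of their genotype, against 20.1% of the other bright probe sets. The mean deviations of the plastid genes were -0.07, 0.13 and -0.06 on the pmr5 arrays and 0.13, -0.02 and -0.11 on the Col-0 arrays. The shifts between arrays of one genotype were larger than the mean difference between the genotypes of -0.02. Leaving out pmr5 replicate 2 gave a mean plastid difference of -0.08, and leaving out Col-0 replicate 1 gave 0.05.

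The genes with the strongest weights on this component were petN and petL, for small subunits of the cytochrome b6f complex, ndhB, ycf2, for a protein of the inner envelope needed for protein import, rpoB, and psbB. Because the deviations were not scaled, a weight also grows with the spread of its probe set. With the mean of the other plastid genes rpoB had an r of 0.55 and psbB 0.58. The rps12 probe set 244940_at had 0.99 and psaI 0.98, at weights of only 0.03 and 0.11. The petN probe set read 8.41, 9.73 and 8.52 in pmr5 and 9.01, 8.62 and 8.55 in Col-0. The ycf2 probe set read 7.31, 8.18 and 6.97 in pmr5 and 8.01, 7.72 and 7.92 in Col-0. The ndhB probe set read 8.59, 9.57 and 8.32 in pmr5 and 9.18, 8.76 and 9.12 in Col-0. In each of the 3 genes pmr5 replicate 2 was the highest of all 6 arrays, by 0.17 or more over the next. The unnamed 244990_s_at, whose number lies between those of ycf2 and ndhB, had the same highest array at 6.53, 7.28 and 6.10 in pmr5 and 7.10, 7.07 and 6.48 in Col-0. The genotypes overlapped in all of these, with differences of 0.16 (SE 0.42) for petN, -0.39 (SE 0.35) for ycf2, -0.19 (SE 0.38) for ndhB and -0.25 (SE 0.38) for 244990_s_at.

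A smaller set had negative weights on this component, on which pmr5 replicate 2 stood apart. The gene with the most negative weight was petG, for another small subunit of the cytochrome b6f complex, which read 7.17, 6.03 and 6.77 in pmr5 and 7.81, 6.46 and 5.72 in Col-0. Its spread within a genotype, with an SD of 0.85, was the widest of the plastid genes, and its difference was -0.01 (SE 0.66). The next were rps18, psaJ and atpA, which like petG were lowest on pmr5 replicate 2 among the pmr5 arrays. Over all 6 arrays these genes did not all run against the rest. With the mean of the other plastid genes petG had an r of 0.27, atpA 0.11, psaJ -0.06 and rps18 -0.48. The lowest such r was that of rpoC2, at -0.71. In gene order petL, petG and psaJ are neighbours, and petL was highest where petG and psaJ were lowest in pmr5.

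Co-variation differed between roles. The median r within the 20 ribosomal protein probe sets was 0.66, within photosystem I 0.63 and within the cytochrome b6f genes 0.58. Within the 9 other plastid genes, which were not grouped by a complex, it was also 0.66, over 36 pairs. It was 0.38 within both the ATP synthase and the NDH complex and 0.30 within photosystem II. The 4 RNA polymerase subunits had a median of -0.26 over 6 pairs, with rpoB high and rpoC2 low on pmr5 replicate 2. Probe sets of neighbouring plastid genes, many of which are known to be transcribed together, had a median r of 0.57 over 76 pairs, against 0.42 over the 2628 pairs of genes 5 or more places apart. None of these contrasts was tested.

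**Figure D5:**
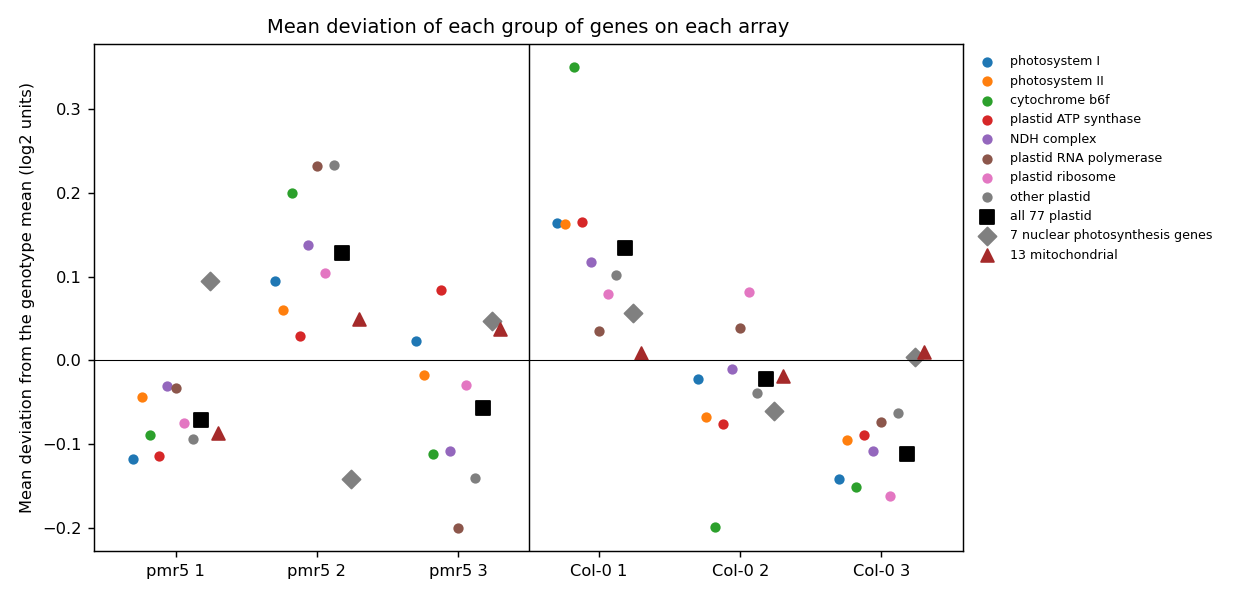
Mean deviation of the log2 signal from the mean of the genotype on each array (pmr5 left, Col-0 right) for the plastid roles with more than 1 gene (circles), all 77 plastid probe sets (squares), the 13 mitochondrial probe sets (triangles) and 7 nuclear photosynthesis genes (diamonds). On pmr5 replicate 2 every plastid role lies above 0, with a mean of 0.13 over the plastid genes, while the nuclear photosynthesis genes are at -0.14.

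Nuclear genes for organelle proteins were read beside the members. They were looked up only through probe sets that the gene table pairs with 1 gene. This found 1 of 9 sigma factors and organelle RNA polymerases, 2 of 12 photosystem I subunits and 2 of 9 photosystem II subunits. It also found 1 of 3 genes for chloroplast ATP synthase subunits and the Rieske protein. Whether the array holds probe sets for the others, unnamed or paired with several genes, was not examined. The lists of 5 alternative oxidases and 4 Rubisco small subunits were not analysed here. None of these genes passed the test in either direction. The RNA polymerase gene AT5G15700 read 2.29 on all 6 arrays. PSAE-1 differed by -0.01 (SE 0.10), PSAN by 0.04 (SE 0.05), PSBY by 0.05 (SE 0.14), PSBW by less than 0.01 (SE 0.09) and ATPC1, for the gamma subunit of the ATP synthase, by -0.05 (SE 0.07).

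These nuclear genes differed from the plastid genes on pmr5 replicate 2, a contrast that was not tested. With the antenna genes LHCB4.1 and LHCB4.2 there were 7 nuclear photosynthesis genes, and in 6 of the 7 pmr5 replicate 2 was the lowest pmr5 array, as in 14 of the 77 plastid probe sets and in 38.8% of the other bright probe sets, while it was the highest in 0. In Col-0, replicate 1 was the highest array for 4 of the 7, or 57.1%, against 67.5% of the plastid probe sets. Their mean deviations were 0.09, -0.14 and 0.05 in pmr5 and 0.06, -0.06 and less than 0.01 in Col-0. The antenna gene LHCB4.2 read 14.90, 14.48 and 14.85 in pmr5 and 14.61, 14.49 and 14.62 in Col-0. On pmr5 replicate 2 the plastid genes were therefore high where the nuclear photosynthesis genes were low, and on Col-0 replicate 1 both were above their means.

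Other measures also differed between these arrays, not always as the plastid genes did, and their part in the plastid pattern was not tested. The array's 3' control probe sets for housekeeping transcripts exceeded their 5' counterparts, a gap that widens as RNA degrades, by a mean of 2.02, 2.20 and 1.97 log2 units on the pmr5 arrays and 2.12, 2.05 and 2.14 on the Col-0 arrays. The gap was widest on pmr5 replicate 2 among the pmr5 arrays, as the plastid genes were, and in Col-0 it was widest on replicate 3, where they were lowest. The spiked poly-A controls averaged 6.33, 6.50 and 5.98 on the pmr5 arrays and 6.53, 6.53 and 6.74 on the Col-0 arrays. They were highest in pmr5 on replicate 2, and every pmr5 array lay below every Col-0 array. In Col-0 they were highest on replicate 3, where the plastid genes were lowest. Markers were looked up in the same way as the nuclear genes. The trichome gene TRY, the 1 found of 2 trichome markers, read 6.57, 8.81 and 6.70 in pmr5 and 8.26, 6.47 and 7.18 in Col-0. It thus peaked on the arrays where the plastid genes did. Of the 2 root markers, EXPA7 stayed at the floor throughout and PYK10 read 4.76, 3.28 and 5.86 in pmr5 and 4.08, 3.43 and 5.20 in Col-0. Both guard cell markers had genotypes that did not overlap, with AT1G22690 higher by 0.58 (SE 0.11) and FMA by 0.16 (SE 0.06) in pmr5, and neither passed after adjustment. Over the whole table, 2.41% of all tested and 3.41% of the varying probe sets were higher in pmr5 without overlap. Of the 8 leaf markers the 2 LHCB4 genes were found, with readings between 14.25 and 14.90, and the 3 flower markers were not analysed here.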

How the data were processed

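RNA of 3 pmr5 and 3 Col-0 rosette samples was hybridised to 1-colour arrays. The deposited table gave 1 log2 signal for each probe set and array, which the authors made with RMA in affy per the submitters' processing notes; versions and the origin of the lowest value are not given in the sources used here. They were used as deposited. Differences, pmr5 minus Col-0, came from limma 3.58.1 in R 4.3.3 (lmFit and eBayes, 2-sided, Benjamini-Hochberg over 22746 probe sets, threshold 0.05), a fit that was tested on simulated data. Its prior had 0.41 degrees of freedom beside 4 residual ones, and the number of arrays limits the precision. The members, gene lists and rule were chosen with earlier results of these data known. The rule named the 8 highest means, the 8 largest SDs, up to 6 increases and 6 decreases without overlap, the 6 smallest p, and nad4L, ccb382 and ccb206; ndhF, psbK, psaC and further role examples were picked after their values were seen. Names came from the platform annotation, with 92 members matched to RefSeq (TAIR10.1) by gene ID and 13 by symbol; RefSeq gave only names and gene order. PMR5 was not analysed here. Alternatives were leaving out arrays, a replicate block, other scalings, priors, weights, filters and thresholds.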

Additional observations from a re-analysis of the deposited data

How the results depend on the processing

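With 1 array left out, the count of called probe sets over the whole table was 0 to 13, highest at 13 without pmr5 replicate 2, with 4 in the absence of pmr5 replicate 3 and 2 in that of pmr5 replicate 1 or Col-0 replicate 3. The count of called members was 0 to 1 (ccb206, without pmr5 replicate 2), and both counts were 0 in the other alternatives, including an adjusted p under 0.1. Members at an unadjusted p under 0.05, 3 as reported, were 18 (12%) with array weights, where 7.97% of all probe sets had such a p, and 5 (3.33%, against 2.72%) with quantile normalization. Among the sets of 5 arrays they were 16 (10.7%, against 7.73%) without pmr5 replicate 2, 9 (6%, against 3.93%) lacking Col-0 replicate 3 and 5 (3.33%, against 2.40%) lacking pmr5 replicate 1. The mean difference of all members was -0.01 to 0.05 and that of the plastid genes -0.08 to 0.05 with 1 array left out. The share at the lowest value was 2.08% among members paired with 1 gene and 16.7% within 0.05 of that value. The median r between arrays was 0.996 above the lowest value and 0.995 by Spearman. The median r between plastid genes ranged from 0.33, lacking Col-0 replicate 1, to 0.57, lacking Col-0 replicate 2. AT5G15700, the only gene of its list found through the gene table, was at 0.0059 with quantile normalization and -0.040 with arrays centred on their medians.

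Of 33 named differences 18 kept their sign in every alternative run and 15 did not; the cause was not tested. With 1 array left out the ranges were -0.028 to 0.029 for atpE, -0.0097 to 0.059 for atpB, -0.054 to 0.055 for rps7, -0.117 to 0.025 for ndhI, -0.48 to 0.57 for petG, -0.26 to 0.40 for petN, -0.57 to 0.021 for 244990_s_at, -0.56 to 0.060 for ndhB, -0.0067 to 0.24 for ccb382, -0.0085 to 0.074 for PSAN, -0.067 to 0.099 for PSAE-1, -0.034 to 0.18 for PSBY and -0.072 to 0.063 for PSBW. With quantile normalization atpE was at 0.036 and psaB at -0.031. With arrays centred on their medians atpB was at -0.012, rps7 at -0.036, AT5G15700 at -0.040, PSAN at -0.0029 and PSBW at -0.038. With array weights atpE was at 0.0089, rps7 at -0.041, petG at 0.32, petN at -0.074 and PSAE-1 at 0.068.

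Same-numbered arrays of the genotypes had deviations that correlated at 0.12, -0.28 and 0.19. Arrays with different numbers had -0.33 to 0.29. Deviations sum to 0 within each genotype, so these values cannot tell whether the numbers pair the samples, and the labels state no pairing. With the replicate number as a block 0 probe sets and 0 members were called, and 3 members had an unadjusted p under 0.05. Depth does not apply to arrays; with 3 per genotype, differences of the size of most standard errors here were not detectable.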
